A study of Ovis aries with 41 samples.

Results

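HOXB13 is the last gene of the HOXB cluster, a transcription factor of the posterior end of the body axis, and in mice its loss lengthens the tail. HOX genes are set up along the axis in the embryo, where the later genes of a cluster mark more posterior levels, and skin cells of the adult keep part of this positional pattern. In the Improved Jezersko-Solčava sheep breed an ancestral allele (A) and a derived allele (D) of HOXB13, which carries an insertion in the promoter region, segregate together with tail length. Here the skin of the middle of the tail was compared between rams homozygous for A and rams homozygous for D.

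The comparison takes the 13 mid-tail libraries of the 41 libraries of the series, which also covers the base and the tip of the tail of the same animals. Of these 13 libraries, 8 came from 4 A/A rams (rams 7, 8, 9 and 10) and 5 from 3 D/D rams (rams 11, 12 and 13). All were adult rams of the one breed, with no treatment named, and the skin was taken after slaughter by punch biopsy from shaved sites. The labels number the libraries of a ram as repeats, without saying at which step they were split, so their counts were summed and the ram was the replicate, with n = 4 and n = 3. Ram 12 had a single mid-tail library. The mid-tail site was set midway along each tail, and D/D tails are the longer ones, so the site lay farther from the base in D/D rams, and genotype and distance from the base cannot be told apart in the values from mid-tail. The same holds for the tip, while the base site lay over the same vertebra in both. The biopsies are whole skin, so more cells of a type and more RNA per cell cannot be told apart either.

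Total counts were 9177395 to 20690466 per library and 17132063 to 33605930 per ram. On log2(CPM + 0.5), where CPM is the count relative to the scaled library total (TMM method, per 1e6 counts), the rams of a D/D pair correlated at 0.982 to 0.987 and those of an A/A pair at 0.927 to 0.982, and genes are not independent replicates in these correlations. Both libraries of ram 7 (median correlation with the other rams 0.916 and 0.911) and the second library of ram 9 (0.894) stood apart from the rest, and the second library of ram 9 correlated with its own pair only at 0.928. The second library of ram 10 stood apart less (0.932). Values without these libraries are given below beside several of the lists and genes that they moved. Markers of surface keratinocytes were high in all rams (summed 23540 to 41990 CPM in A/A and 24430 to 34710 CPM in D/D), and skin is the labelled tissue.

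Of 31182 annotated genes, 17996 passed the filter on low counts. None had an adjusted p under 0.05 between A/A and D/D rams in edgeR's quasi-likelihood test, so the background of calls is 0% (smallest adjusted p 0.848), and none reached the stricter thresholds of the study (adjusted p up to 0.01, log2 fold change beyond 1 in either direction). With no difference, a share of about 0.05 of genes tested would reach an unadjusted p under 0.05, here and in later comparisons. At that threshold there were 1014 of the 17996 genes, of which 705 were higher and 309 lower in A/A. That count was 3141 without ram 9, 2071 without its second library, 989 without the second library of ram 10, 420 without ram 12 and 477 without ram 13. Scaling to library totals gave 941 higher of 1145 and limma-voom 497 higher of 902. Every A/A ram lay above every D/D ram in 691 genes (3.84% of those tested) and below in 774 genes (4.30%). Across all genes the log2 fold change, taken as A/A over D/D, had a median of 0.03. DESeq2 on the same sums called 31 of 19881 genes at an adjusted p under 0.05 (0.156%) and 11 at the study's thresholds (0.0553%), and limma-voom called 0.

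HOXB13 itself was read 217 times in the A/A libraries and 8 times in the D/D libraries. In A/A rams 7, 8, 9 and 10 it stood at 0.793, 4.03, 0.426 and 2.16 CPM. In D/D rams 11, 12 and 13 it stood at 0.0966, 0.0586 and 0.155 CPM. The groups did not overlap, but the A/A rams spread widely, with rams 8 and 10 well above rams 7 and 9. The D/D values rest on 2, 1 and 5 counts. The ratio of summed CPM was 17.2 (exact 95% interval 8.56 to 40.3, which covers counting error only). The log2 fold change from edgeR was 4.03 with a standard error of 0.90 (adjusted p = 0.848). With D/D counts this low, the gene can pass the filter on low counts through the A/A rams alone. With no filter edgeR gave 4.01 (adjusted p = 0.709). DESeq2 gave 4.10 with an adjusted p of 0.0056. The exact two-sided permutation test over the 7 rams, on the difference in mean log2(CPM + 0.5) of 1.69, gave p = 0.0571, where the 35 assignments allow no p below 0.0286. The gene lies on chromosome 11 at 37525009 to 37530787 of the ARS-UI_Ramb_v3.0 assembly, in the annotation of RefSeq.

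The other genes of the HOX clusters showed no difference of that size. Of 11 HOXA, 9 HOXB, 8 HOXC and 6 HOXD genes tested, with 0 called in any cluster, HOXB13 had the largest log2 fold change and HOXA6 came next, at 15.5, 11.8, 9.04 and 9.78 CPM in the A/A rams against 6.18, 3.22 and 6.03 CPM in the D/D rams, a log2 fold change of 1.16 (standard error 0.33) with no overlap. HOXA5 (0.47) and HOXA3 (0.65) also had small p for their cluster, and their groups overlapped.

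The paralogues HOXA13 and HOXC13 lay on the opposite side. HOXA13, which patterns the tips of limbs and the hindgut, was at 3.84, 2.27, 2.02 and 4.09 CPM in A/A rams and 4.49, 4.22 and 4.64 CPM in D/D rams, a log2 fold change of -0.54 (standard error 0.35). HOXC13, which is needed for hair and nail keratins and is also a member of the wool follicle list below, was at 29.1, 113, 128 and 120 CPM in A/A rams and 158, 216 and 185 CPM in D/D rams, a log2 fold change of -0.93 (standard error 0.42) that was -0.62 without ram 7. In both, every A/A ram lay below every D/D ram (against 4.30% of all genes), and neither passed the adjustment. For HOXA13 the groups overlapped at the base (log2 fold change 0.28) and at the tip (0.02).

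**Figure D1:**
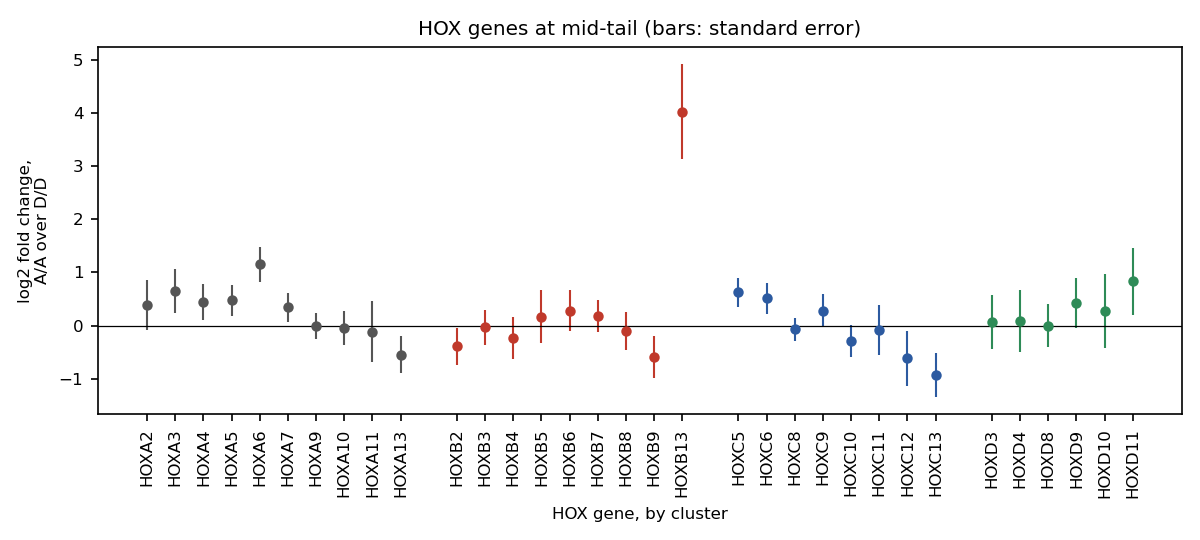
Vertical axis, log2 fold change (A/A over D/D) of HOX genes tested at mid-tail, ordered along its cluster (HOXA grey, HOXB red, HOXC blue, HOXD green), with bars for the standard error from edgeR. HOXB13 stands at 4.03 and the other genes between -0.93 and 1.16.

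Other posterior genes showed no separation. HOXA10 (-0.05), HOXA11 (-0.11), HOXC10 (-0.28) and HOXC11 (-0.08) overlapped between the groups. Within the HOXB cluster the smallest p after HOXB13 belonged to HOXB9 (-0.59), HOXB2 (-0.39) and HOXB6 (0.28), and the cluster's median was -0.03. In the HOXC cluster HOXC5 was at 16, 17.1, 13.1 and 9.67 CPM in A/A rams and 9.51, 9.84 and 7.86 CPM in D/D rams (log2 fold change 0.62), which overlapped, with HOXC6 at 0.51 and HOXC12 at -0.62. The HOXD genes are less certain. HOXD11 stood at 0.84 (0.33 without ram 7), HOXD9 at 0.43, HOXD10 at 0.28 and HOXD4 at 0.09, but ram 7 was the highest ram in each, and without it HOXD9, HOXD10 and HOXD4 turned to -0.05, -0.81 and -0.76.

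Partners and neighbours of HOXB13 were looked at next. HOX proteins bind DNA with MEIS and PBX cofactors, and 8 of the 9 tested had a positive log2 fold change (median 0.32, against 0.03 over all genes). PBX3 was at 22.4, 8.97, 16.3 and 11.7 CPM in A/A rams against 13.6, 8.67 and 9.49 CPM in D/D rams (log2 fold change 0.48), and it overlapped, as did MEIS1 (0.54) and PBX4 (0.57). Without ram 7 the median of these cofactors was 0.15. Of 10 neighbours of HOXB13 on chromosome 11 that were tested, ZNF652, a zinc finger repressor, was at 50.2, 21.9, 26.9 and 21.3 CPM in A/A rams and 12.8, 12.3 and 17.9 CPM in D/D rams (log2 fold change 1.07, standard error 0.34). It was the only 1 of the 10 neighbours without overlap between the groups. Over all genes, 3.84% lay above in every A/A ram and 4.30% below. CALCOCO2 (0.24) and ABI3 (0.29) overlapped.

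Of 30 tested regulators of limb and appendage growth, 2 lay above in every A/A ram and 3 below, against 3.84% and 4.30% of all genes. The median was 0.23, and 0.0969 without ram 7 and the second library of ram 9. LMX1B, which sets the dorsal side of the limb, was at 9.39, 10.7, 4.29 and 8.25 CPM in A/A rams against 3.72, 2.87 and 2.72 CPM in D/D rams, a log2 fold change of 1.395 (standard error 0.36) with no overlap. ZBTB16, a zinc finger factor of limb patterning that is also a target of the glucocorticoid receptor, was at 130, 48.5, 96.6 and 52.2 CPM in A/A rams and 33.1, 24.1 and 59.8 CPM in D/D rams (1.06). ZBTB16 and TBX15 (0.48) overlapped. The other member above in every A/A ram was TFAP2B, described with the leading genes. These 4 were named for the smallest p of the list, and all were positive. The 3 members below are not among them, and of the 30 tested 19 were positive and 11 negative.

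The genes with the smallest p were next taken as a set of 15 in each direction, among genes with a symbol and a mean of at least 1 CPM. All of them had an adjusted p of 0.848. They were picked by their p, so their separation is not a further result. The set higher in A/A was led by KCNMA1, TTC6 and ABCC11. KCNMA1, the pore of the calcium-activated BK potassium channel, was at 34.9, 27.9, 18.8 and 17.4 CPM in A/A rams and 5.65, 6.85 and 7.54 CPM in D/D rams, a log2 fold change of 1.89 (standard error 0.31, DESeq2 adjusted p = 0.00013). ABCC11, the transporter that in humans decides wet or dry earwax and acts in apocrine sweat glands, was at 95.5, 275, 225 and 138 CPM in A/A rams and 50.7, 49.9 and 38.4 CPM in D/D rams (1.99, standard error 0.36). The lowest A/A ram of ABCC11, ram 7, still lay above all D/D rams.

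FOXA1, a pioneer factor of glandular epithelium, was at 80.3, 57, 58.5 and 51.8 CPM in A/A rams and 35, 27.6 and 23.4 CPM in D/D rams (1.11, standard error 0.24). TTC6, which encodes a tetratricopeptide repeat protein, was at 9.14, 5.2, 7.27 and 5.06 CPM in A/A rams and 1.11, 1.93 and 1.7 CPM in D/D rams (2.07, standard error 0.37). These genes are neighbours, with FOXA1 at 45500919 to 45507710 and TTC6 at 45507933 to 45752341 of chromosome 18 in the same assembly, 222 bases apart. With all 21 ram sums of the 3 tail positions in 1 edgeR fit, TTC6 had an adjusted p of 0.0422. CRACR2A, a regulator of store-operated calcium channels, had an adjusted p of 0.0466 there. That fit had no term for the ram. The 3 sites of a ram therefore counted as separate replicates, which can make p too small.

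CRACR2A was at 10.8, 6.2, 6.35 and 6.17 CPM in A/A rams and 1.83, 2.34 and 2.6 CPM in D/D rams (1.70). TRPV6, a calcium channel of epithelia, was at 89.4, 406, 196 and 322 CPM in A/A rams and 64.6, 81.1 and 59.1 CPM in D/D rams (1.89). TFAP2B, an AP-2 transcription factor of ectoderm and limb, was at 148, 104, 93.6 and 82.1 CPM in A/A rams and 49.4, 45.2 and 46.8 CPM in D/D rams (1.18). Among these genes ram 7 was the highest A/A ram for KCNMA1, TTC6, CRACR2A, TFAP2B and FOXA1, and the lowest for ABCC11 and TRPV6.

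The rest of the set higher in A/A were HIVEP3 (1.29), a zinc finger protein, JOSD2 (1.56), a deubiquitinase, SLC25A35 (1.77), a mitochondrial carrier, RPE65 (3.06), the retinoid isomerase of the visual cycle, MMP7 (1.53), the secreted protease matrilysin, SHANK2 (1.19), a scaffold protein, and ANKRD33B (0.89), an ankyrin repeat protein. RPE65 was low in all rams, at 0.793, 3.15, 0.886 and 3.27 CPM in A/A rams and 0.29, 0.293 and 0.155 CPM in D/D rams. At these D/D levels RPE65 can also pass the filter through the A/A rams alone. ANKRD33B had narrow groups, at 20.3, 21.6, 21.4 and 21.5 CPM in A/A rams and 12.6, 11 and 10.9 CPM in D/D rams.

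When ram 7 and the second library of ram 9 were left out together, edgeR called 12 genes, each higher in A/A. They included TRPV6 (log2 fold change 2.34, adjusted p = 0.00645) and SLC25A35 (2.11, adjusted p = 0.00645), ABCC11 (adjusted p = 0.0301), KCNMA1 (adjusted p = 0.036), and the gland transcription factors SPDEF (1.74, adjusted p = 0.0301) and CREB3L4 (1.80, adjusted p = 0.0271), which were named after their values were seen. With all rams SPDEF was at 1.34, 9.98, 6.35 and 11.9 CPM in A/A rams and 3.53, 3.22 and 3 CPM in D/D rams, so that ram 7 lay below the D/D rams. The choice to leave these libraries out was made after the data were seen.

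**Figure D2:**
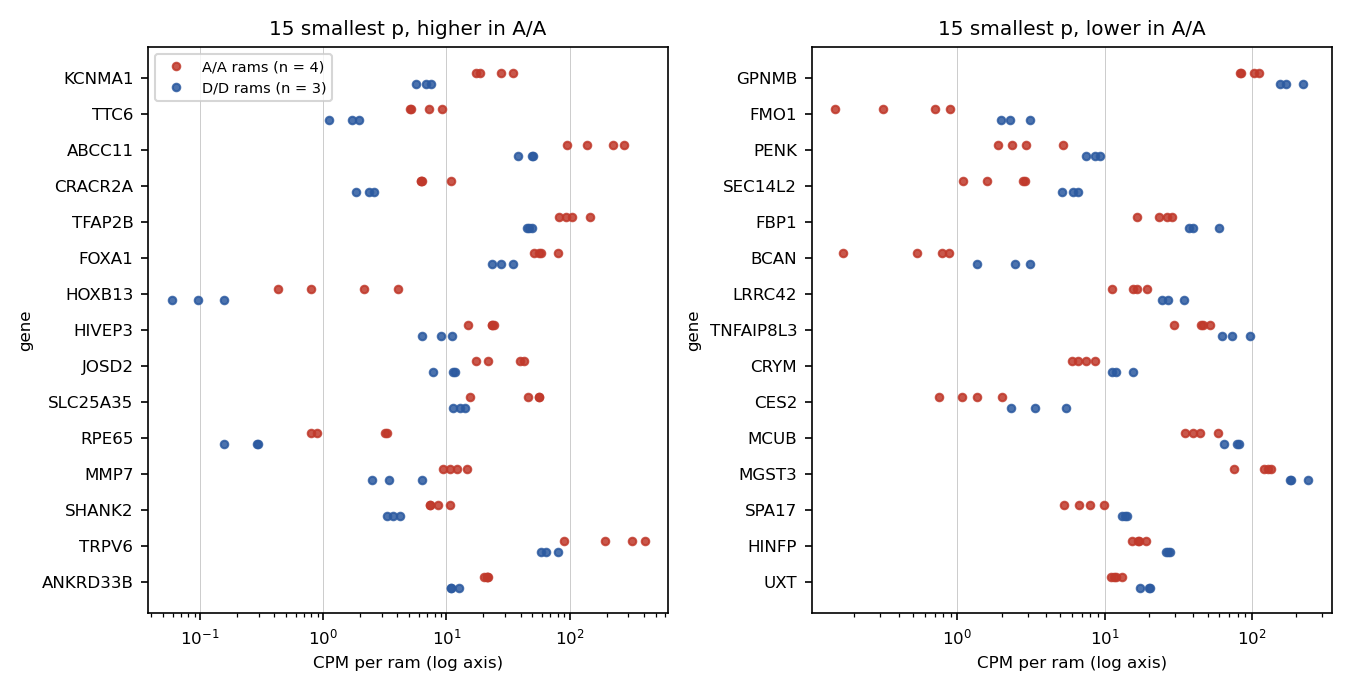
CPM on a log axis (horizontal) for the 15 genes with the smallest p in each direction (rows), with 1 dot per ram in A/A (red, upper dots, n = 4) and D/D (blue, lower dots, n = 3). The genes were picked by p, and the groups do not overlap in any of the 30, while HOXB13 spans 0.426 to 4.03 CPM within A/A.

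The 15 genes lower in A/A were led by GPNMB, a transmembrane glycoprotein of melanosomes and macrophages. It was at 83.2, 111, 103 and 84.1 CPM in A/A rams and 155, 223 and 170 CPM in D/D rams, a log2 fold change of -0.94 (standard error 0.22). FMO1, a flavin monooxygenase, was at 0.709, 0.315, 0.886 and 0.149 CPM in A/A rams and 1.98, 3.1 and 2.29 CPM in D/D rams (-2.25, DESeq2 adjusted p = 0.0493). It was the only one of the 15 that DESeq2 called. PENK, the precursor of enkephalin peptides, was at 2.92, 5.23, 2.34 and 1.9 CPM in A/A rams and 8.55, 7.5 and 9.28 CPM in D/D rams (-1.44).

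Of the others, SEC14L2 (-1.51) binds lipids such as vitamin E, FBP1 (-0.94) is an enzyme of gluconeogenesis, CES2 (-1.50) a carboxylesterase, MGST3 (-0.81) a microsomal glutathione transferase, CRYM (-0.85) a binder of thyroid hormone and MCUB (-0.75) a subunit of the mitochondrial calcium uniporter. The last of the set were BCAN (-1.95), a proteoglycan known from brain, LRRC42 (-0.87), TNFAIP8L3 (-0.84), SPA17 (-0.87), HINFP (-0.65), a regulator of histone H4 genes, and UXT (-0.69).

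Among the 11 genes at the study's thresholds in DESeq2, 5 are named above or are HOXB13 itself (KCNMA1, TTC6, ABCC11, CRACR2A and HOXB13), and 6 have only a LOC number. LOC132658058 and LOC101110577 are annotated as V segments and LOC101114469 as a C region of antigen receptors, and they are treated with the immune genes. LOC114116813, a long non-coding RNA on chromosome 11, was at 21.6, 14.1, 13.1 and 16.2 CPM in A/A rams and 6.62, 4.69 and 6.87 CPM in D/D rams (1.42). LOC101108109 and LOC101120721, both protein-coding without a name, were the only lower genes, at -1.49 and -1.399. LOC101120721 was at 5.97, 4.75, 4.86 and 8.14 CPM in A/A rams and 14.6, 16.9 and 15.4 CPM in D/D rams.

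The gene lists were then described by their members, and no member of any of the 48 lists passed the adjustment. Apocrine sweat gland markers were 9 of 12 positive, with a median log2 fold change of 0.34 and 2 members above in every A/A ram (against 3.84% of all genes). KRT18, a keratin of simple and gland epithelium, was at 17.4, 30.5, 18.7 and 24.6 CPM in A/A rams and 11.1, 15.7 and 11.1 CPM in D/D rams (0.85). KRT19 (0.73) and the chloride channel gene ANO1 (0.46) overlapped, and FOXA1 belongs to this list as well. AQP5, the water channel of sweat gland cells, named after its values were seen, was at 0, 15.5, 0.106 and 1.71 CPM in A/A rams and 6.71, 4.28 and 5.41 CPM in D/D rams, so it varied more among A/A rams than among D/D rams. The summed level of the list was 577, 869, 682 and 866 CPM in A/A rams and 588, 665 and 558 CPM in D/D rams, which overlapped.

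**Figure D3:**
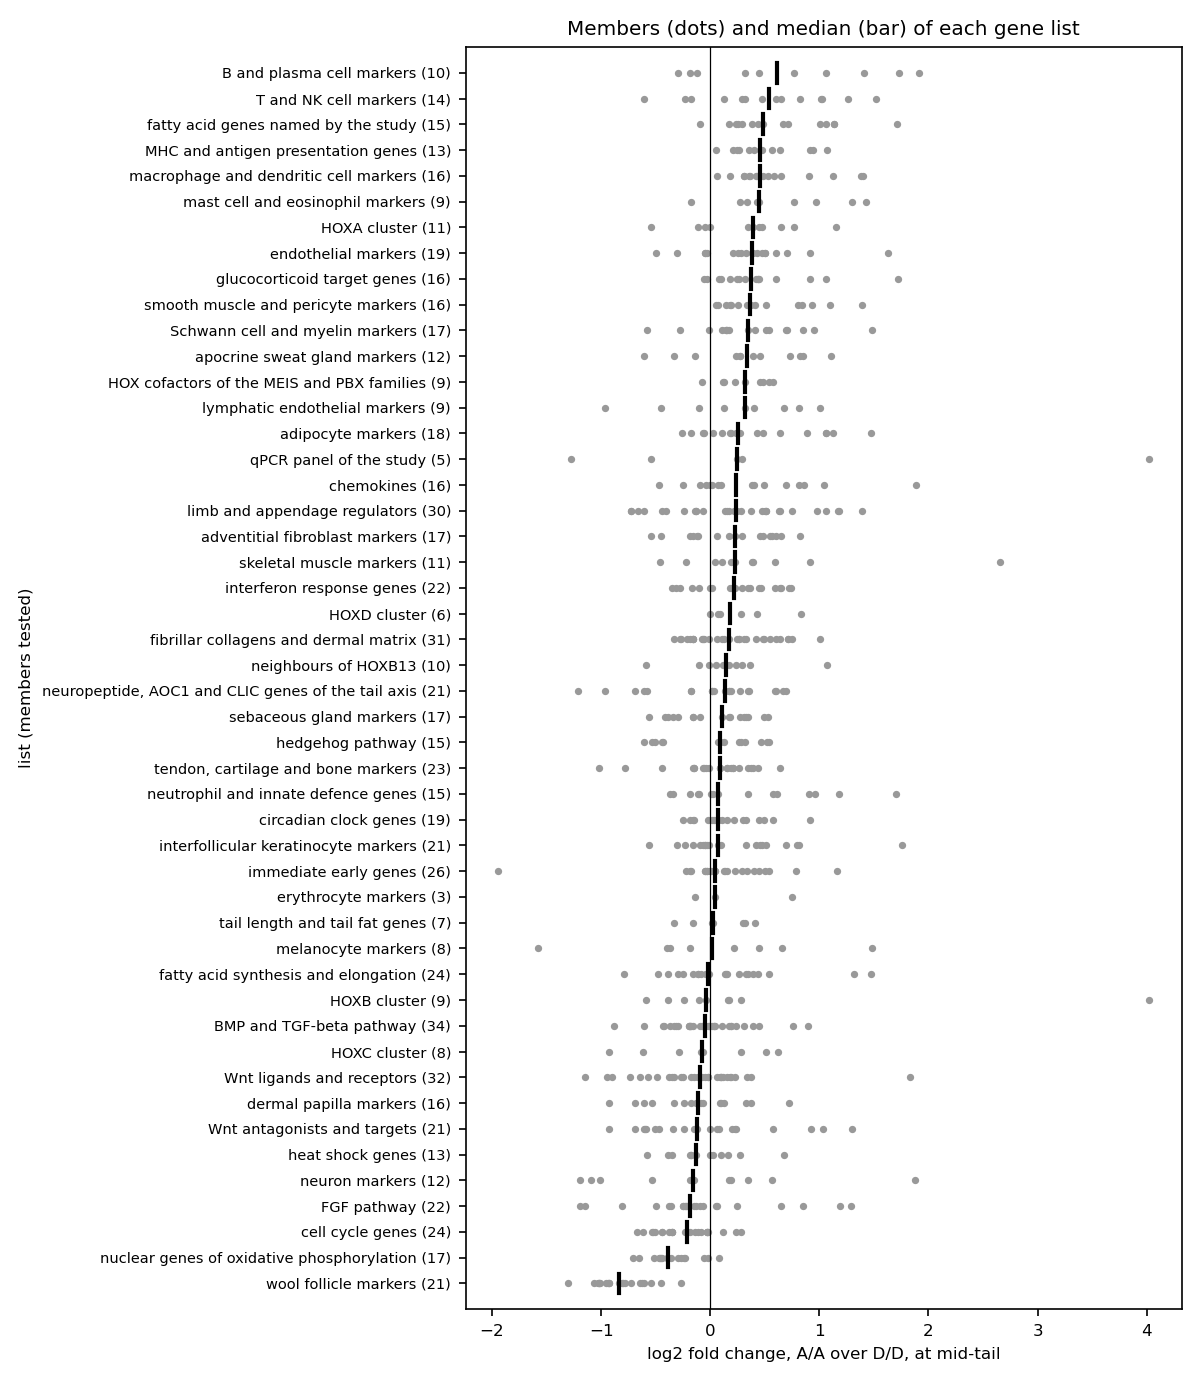
Horizontal axis, log2 fold change (A/A over D/D) at mid-tail of the tested members (grey dots) of the 48 gene lists (rows, number tested in brackets), with a black bar for the median, sorted by the median. Wool follicle markers have the lowest median, at -0.84, and B and plasma cell markers the highest, at 0.61.

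Wool follicle genes lay on the lower side in A/A. All 21 tested had a negative log2 fold change, 13 lay below in every A/A ram (against 4.30% of all genes) and the median was -0.84. LEF1, a Wnt effector of the hair matrix, was at 32, 96.6, 128 and 78.3 CPM in A/A rams and 152, 171 and 155 CPM in D/D rams (-0.93, standard error 0.38). S100A3, a protein of the hair cuticle, was at 12.4, 142, 143 and 134 CPM in A/A rams and 193, 371 and 236 CPM in D/D rams (-1.31, or -0.93 without ram 7). KRT28 (-0.95), a keratin of the inner root sheath, overlapped. The summed level was 3437, 14640, 14800 and 17720 CPM in A/A rams and 22450, 21870 and 22460 CPM in D/D rams, so all 4 A/A rams lay below, and ram 7 far below the others. Without ram 7 the median was -0.53, and without ram 7 and the second library of ram 9 it was -0.43 with all 21 still negative.

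Signals of the follicle were mixed. Of 32 Wnt ligands and receptors, LGR6, a receptor of stem cells in the follicle and glands, was at 5.59, 8.53, 2.59 and 7.7 CPM in A/A rams against 2.27, 0.469 and 2.32 CPM in D/D rams (1.83), while WNT3 (-0.49), WNT10A (-0.65) and WNT10B (-0.94) were negative. Of 21 Wnt antagonists and targets, DKK1, a secreted inhibitor of the pathway, was at 3.09, 2.05, 2.23 and 2.97 CPM in A/A rams against 1.01, 1.29 and 0.866 CPM in D/D rams (1.30), with the inhibitors NKD2 at 0.92, which did not overlap either, and FRZB at 1.04, which did. In every A/A ram, 2 antagonists and targets lay above and 3 below, and LEF1, given above, is among the 3. Of the ligands and receptors 1 lay above and 2 below. Over all genes these shares were 3.84% above and 4.30% below. The medians of the ligand and antagonist lists were -0.09 and -0.12. In the FGF pathway (22 genes, median -0.18) FGF18 (-0.81), FGF5 (-1.15), which ends the growth phase of hair, and FGF21 (-1.19) were negative, and FGF10 stood at 1.29 with ram 7 highest (0.57 without it). FGF5 was at 3.76, 3.59, 16.7 and 7.36 CPM in A/A rams and 13.5, 20.9 and 18 CPM in D/D rams. Of the 22 FGF genes, 1 lay above and 3 below in every A/A ram (against 3.84% and 4.30% of all genes). Cell cycle genes were 21 of 24 negative (median -0.22), with UBE2C at -0.67, CCNE2 at -0.61, KIF20A at -0.53 and PCNA at -0.44, and without ram 7 their median was -0.04 with 13 negative.

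Of 21 markers of surface keratinocytes 11 were positive and 10 negative (median 0.07), with LORICRIN at 0.82, KRT77 at 0.79, KRT15 at 0.69 and SPINK5 at 0.47. Without ram 7, 18 were positive (median 0.23), and in limma-voom 10 were (median -0.04). Of the 2 members above in every A/A ram (against 3.84% of all genes), SPINK5 was at 955, 1034, 891 and 822 CPM in A/A rams against 753, 442 and 803 CPM in D/D rams. The dermal matrix had a median of 0.18 over 31 genes, 0.36 without ram 9 and 0.03 without ram 10. LOXL3, a lysyl oxidase that cross-links collagen, was at 31.6, 22.3, 13.7 and 23.4 CPM in A/A rams and 11.1, 12.4 and 10.5 CPM in D/D rams (1.01, standard error 0.30), COL12A1 stood at 0.50, COL16A1 at 0.71 and POSTN at 0.64 (0.19 without ram 7).

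Genes of oxidative phosphorylation encoded in the nucleus were 16 of 17 negative, with 9 below in every A/A ram (against 4.30% of all genes) and a median of -0.39. ATP5MC3, a ring subunit of ATP synthase, was at 60, 81.8, 85.1 and 94.7 CPM in A/A rams and 112, 138 and 128 CPM in D/D rams (-0.65). NDUFA4 (-0.71), ATP5F1C (-0.46) and ATP5PO (-0.51) lay below in every A/A ram as well. The list sum was 1324, 1607, 1645 and 1875 CPM in A/A rams and 2013, 2216 and 2105 CPM in D/D rams, without overlap, and the median without ram 7 was -0.28. Of 85 genes of ribosomal proteins, a group added after the values were seen, 78 were negative and 17 below in every A/A ram, against 4.30% of all genes (median -0.25). Their sum was 28930, 34110, 25760 and 38870 CPM in A/A rams and 37590, 39000 and 38870 CPM in D/D rams. Genes below in every A/A ram spanned a median of 11970 bases of the genome, against 35660 bases for genes above and 21460 bases for genes whose groups overlapped, and the part of gene span in these groups was not tested.

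**Figure D4:**
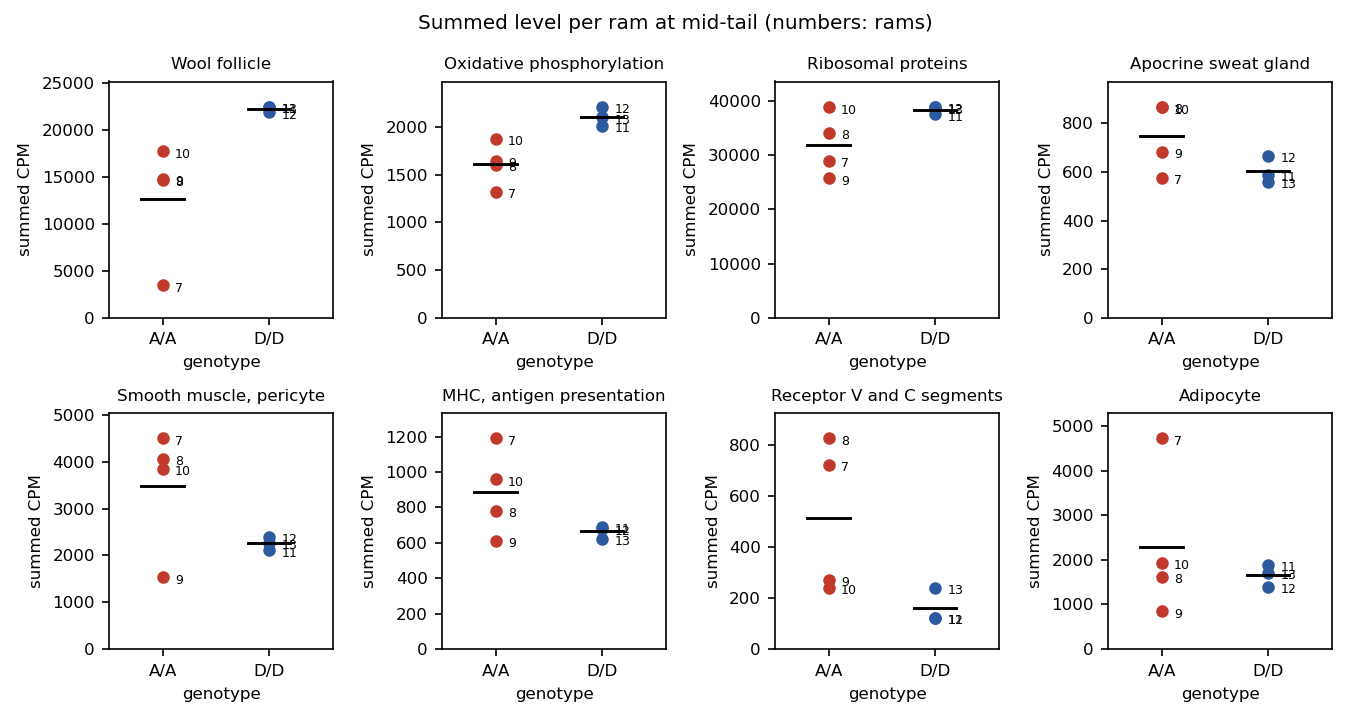
Summed CPM (vertical axis, from 0) of 8 gene groups at mid-tail for each A/A ram (red, left) and D/D ram (blue, right), with ram numbers and a black bar for the mean. Wool follicle and oxidative phosphorylation sums of all 4 A/A rams lie below all D/D rams, and ram 7 stands at 3437 CPM for wool follicle and 4722 CPM for adipocyte markers.

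Interferon response genes were 16 of 22 positive with a median of 0.22, and 11 of 22 with a median of 0.0093 without ram 7. Chemokines were 11 of 16 positive with a median of 0.24, and 7 of 16 with a median of -0.12 without ram 7. Genes of neutrophils and innate defence were 10 of 15 positive, with a median of 0.07. MHC and antigen presentation genes were 13 of 13 positive, with 5 above in every A/A ram (against 3.84% of all genes) and a median of 0.46. ERAP1, a peptidase that trims peptides for MHC class I, was at 42, 23.9, 22.5 and 17.3 CPM in A/A rams and 15.4, 9.37 and 12.9 CPM in D/D rams (1.07, standard error 0.33). The MHC transactivators NLRC5 (0.94) and CIITA (0.92) and the peptidase ERAP2 (0.57) did not overlap either. The sum of the list was 1191, 783, 612 and 959 CPM in A/A rams and 692, 679 and 623 CPM in D/D rams, with ram 9 below all D/D rams. Without ram 7 the median of the list was 0.30.

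Markers of B and plasma cells had a median of 0.61 over 10 genes, with 4 above in every A/A ram (against 3.84% of all genes). With all rams this was the highest median of the lists. Without ram 7 it was 0.35, below skeletal muscle (0.48) and apocrine sweat gland (0.44) markers. JCHAIN, the joining chain of secreted antibodies, was at 37.1, 24.9, 31.2 and 16.6 CPM in A/A rams and 10.4, 12.8 and 16.1 CPM in D/D rams (1.06). POU2AF1 (1.73) and PAX5 (1.41), transcriptional regulators of B cells, were under 2.5 CPM in every ram, and MS4A1 stood at 1.91 with overlap (0.65 without ram 7). PAX5 was tested in only 9 of 20 alternative settings. Genes this low can pass the filter through the A/A rams alone, so the count of 4 can depend on the filter. With a filter of 1 CPM in 3 ram sums, 6 members were tested (5 positive, median 0.63). The list sum overlapped, at 299 to 398 CPM in A/A rams and 298 to 318 CPM in D/D rams. Of 36 V segments and C regions of antigen receptors, a group added after their values were seen, 32 were positive, 7 lay above in every A/A ram (against 3.84% of all genes) and the median was 1.51. Among the 7, LOC132658057 was at 0.338, 0.234 and 0.34 CPM in D/D rams. Segments this low can pass the filter through the A/A rams alone as well. The count of 7 and the median can therefore depend on the filter. LOC132658058, a V segment on chromosome 17, was at 4.3, 4.85, 1.88 and 4.24 CPM in A/A rams and 0.869, 0.703 and 0.495 CPM in D/D rams (2.48). LOC101110577 on chromosome 3 (2.60) and the C region LOC101114469 on chromosome 17 (3.08) overlapped, with ram 9 at the level of the D/D rams. The summed level of the 36 was 722, 827, 272 and 239.9 CPM in A/A rams and 124, 124 and 239.6 CPM in D/D rams, so rams 7 and 8 were high and rams 9 and 10 close to D/D ram 13. Segments of this kind resemble one another, and reads shared among them could be split in counting, so single segments are uncertain.

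Macrophage and dendritic cell markers were 16 of 16 positive with a median of 0.46, and 12 of 16 with a median of 0.16 without ram 7. CD207, langerin of Langerhans cells, was at 2.5, 6.42, 6.28 and 1.75 CPM in A/A rams and 1.79, 1.46 and 1.58 CPM in D/D rams (1.396), with ram 10 inside the D/D range. ITGAM (1.38) was above in every A/A ram, and C1QC (1.13) and AIF1 (0.65) overlapped. T and NK cell markers had a median of 0.54 over 14 genes and 0.08 without ram 7, with IL7R at 1.26, CD3E at 1.02 (0.39 without ram 7), CCR7 at 1.52 and FOXP3 at 0.47. Mast cell and eosinophil markers had a median of 0.44 over 9 genes, and CPA3 (0.97), HPGDS (1.42), TPSB2 (1.30) and MS4A2 (0.77) all overlapped. That median was 0.30 without ram 7 and 0.0755 without ram 7 and the second library of ram 9. In ram 7 the summed T and NK cell level was 69.9 CPM, against 33.1, 37 and 30.8 CPM in the other A/A rams and 27.7, 30.9 and 26.6 CPM in D/D rams.

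Smooth muscle and pericyte markers were 16 of 16 positive with a median of 0.37. Without ram 7, 11 of 16 were positive (median 0.26), and without ram 9 the median was 0.64. MYH11, the myosin of smooth muscle, was at 1571, 1279, 332 and 924 CPM in A/A rams and 412, 349 and 413 CPM in D/D rams (1.39, standard error 0.44). Ram 9 lay below the D/D rams here, as it did for LMOD1 (1.10) and ACTG2 (0.93), while MYLK (0.52) was above in every A/A ram. The list sum was 4503, 4066, 1530 and 3850 CPM in A/A rams and 2111, 2390 and 2268 CPM in D/D rams. Endothelial markers had a median of 0.38 over 19 genes and 0.14 without ram 7. CD300LG was at 11.2, 4.38, 3.44 and 2.79 CPM in A/A rams against 1.98, 1.23 and 2.01 CPM in D/D rams (1.63), VWF stood at 0.92, EGFL7 at 0.70 and CDH5 at 0.48.

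The fatty acid genes that the study names were 14 of 15 positive with a median of 0.48, and 9 of 15 with a median of 0.06 without ram 7. The study drew them from a term enriched among genes that fell from base to tip in D/D rams of this series. Genes picked in this way can read low in D/D at mid-tail, so their signs and sum are no independent result. Of these, 2 lay above in every A/A ram (against 3.84% of all genes). ACSM5, an acyl-CoA synthetase, was at 11.6, 9.89, 6.7 and 5.99 CPM in A/A rams and 4.34, 4.98 and 3.49 CPM in D/D rams (1.00). DAGLA, a diacylglycerol lipase, was at 3.05, 2.71, 2.06 and 4.13 CPM in A/A rams and 1.59, 1.17 and 1.3 CPM in D/D rams (1.14). ACSM1 (1.72), ADIPOQ (1.06), PCK1 (1.14), PM20D1 (0.67), TNXB (0.71), PDK4 (0.44), ALOX5AP (0.48), PTGS1 (0.38), ALOX15 (0.29), CYP2A6 (0.26), LEP (0.24) and PTGDS (-0.09) overlapped. ACSM1 was at 326 CPM in ram 7, against 22.1, 39.3 and 27.2 CPM in the other A/A rams and 38, 11.5 and 44.9 CPM in D/D rams. Without ram 7 its log2 fold change was -0.09, with ADIPOQ at 0.0643, PCK1 at 0.72, CYP2A6 at 0.65, ALOX15 at -0.82 and LEP at -0.42. The list sum was 1435, 747, 634 and 837 CPM in A/A rams and 610, 562 and 548 CPM in D/D rams, without overlap.

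Adipocyte markers moved with ram 7. Their sum was 4722, 1619, 845 and 1927 CPM in A/A rams and 1878, 1391 and 1715 CPM in D/D rams, and the median of 18 genes was 0.25, or 0.05 without ram 7. CIDEC (1.48), LIPE (1.06) and PLIN1 (1.13) were led by that ram, and without it they stood at 0.56, 0.16 and -0.02. The part of fat in the biopsy in the fatty acid genes was not tested. Synthesis of fatty acids differed by gene. SCD, the desaturase that makes oleic acid, was at 390, 492, 272 and 169 CPM in A/A rams and 140, 84.8 and 132 CPM in D/D rams (1.48, standard error 0.37, DESeq2 adjusted p = 0.037), and its groups did not overlap. ACACB stood at 1.32 and FASN at 0.54, whereas ME1 stood at -0.79. The median of the 24 genes of synthesis and elongation was -0.02.

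Of the study's other qPCR genes, AGT, the precursor of angiotensin, was at 0.543, 0.283, 0.496 and 0.0743 CPM in A/A rams and 0.241, 0.703 and 1.55 CPM in D/D rams (-1.28), and LOXL4 stood at 0.25. Their groups overlapped. SP8 and ACSM2B did not pass the filter on low counts. Glucocorticoid target genes were 14 of 16 positive (median 0.37), with HIF3A at 1.72 (0.25 without ram 7), ERRFI1 at 0.44 and PER1 at 0.92 (0.43 without ram 10) beside ZBTB16, and none lay above in every A/A ram. Their summed level did not overlap, at 2527, 2049, 2228 and 2474 CPM in A/A rams and 1792, 1815 and 1743 CPM in D/D rams. A list of neuropeptide, AOC1 and CLIC genes had a median of 0.13 over 21 genes, -0.11 without ram 7 and -0.03 in limma-voom, with HNMT at 0.67, SCUBE3 at -0.61, CORIN at -0.69 and HRH1 at 0.60. With all rams, the medians of the other lists lay between -0.16 and 0.35.

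The same rams were also sampled at the base and the tip, which shows whether the mid-tail difference was seen elsewhere on the tail. The difference between A/A and D/D at mid-tail was set against that at the base and at the tip in a model with ram as a block. For the base 0 of 18566 genes (0%) had an adjusted p under 0.05, with 825 at an unadjusted p under 0.05, and for the tip 0 of 18691 (0%), with 414. Against the base the smallest adjusted p of 0.101 was shared by MMP7 (difference of log2 fold changes 2.26, standard error 0.28) and the C region LOC101114469 (4.03, standard error 0.52). Without ram 10, or with no filter on low counts, both passed (adjusted p = 0.0468 for both in edgeR without ram 10). For HOXB13 the difference was 3.20 (standard error 2.61) against the base and 0.62 (standard error 0.95) against the tip, and neither was past the threshold.

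At the base HOXB13 was at 0.044, 0, 0.0306 and 0 CPM in A/A rams and 0, 0.0307 and 0 CPM in D/D rams, which is below the filter. At the tip it was at 6.54, 4.07, 3.38 and 5.22 CPM in A/A rams and 1.04, 0.252 and 0.464 CPM in D/D rams (3.05). The groups did not overlap at mid-tail and tip.

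The sets of 15 leading genes were then described at the other sites. Those libraries were not used to pick the genes, but they came from the same rams, so a lasting difference between rams would carry the sign over, and the counts are no independent test. No gene of either set passed the adjustment at the base or the tip. Of the set higher in A/A at mid-tail, 12 of 14 tested were higher at the base (median 0.88) and 15 of 15 at the tip (median 0.91), where 50.9% and 51.9% of all genes were higher as a background. Every A/A ram lay above every D/D ram for 6 of them at the base (2.84% of all genes) and 10 at the tip (6.88%). Of the set lower in A/A, 15 of 15 were lower at the base (median -0.50) and 15 of 15 at the tip (median -0.71), with 1 and 5 below in every A/A ram (1.87% and 8.07% of all genes). JOSD2 (-0.37) and MMP7 (-0.68) were the exceptions at the base. The genes that stayed apart at all 3 sites were CRACR2A, TTC6, TFAP2B, HIVEP3 and ANKRD33B among the higher and SPA17 among the lower. CRACR2A had a log2 fold change of 1.17 at the base and 0.91 at the tip, TFAP2B 0.56 and 1.07, and SPA17, a sperm protein, -0.80 and -1.10.

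**Figure D5:**
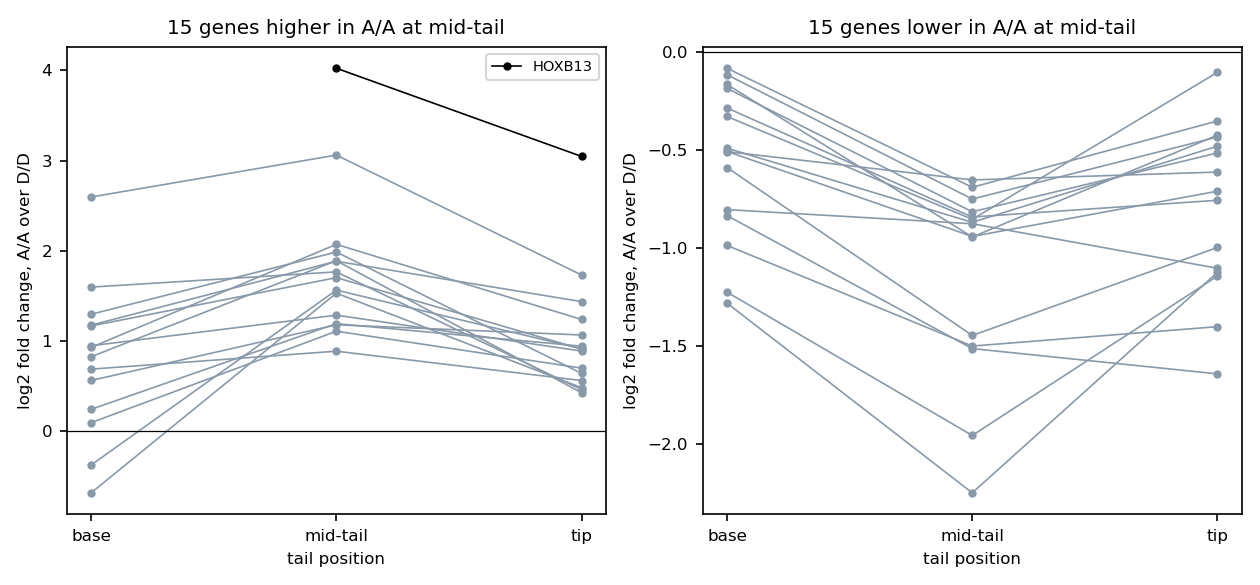
Vertical axis, log2 fold change (A/A over D/D), against sampling site on the horizontal axis, for the 15 genes picked as higher (left) and the 15 picked as lower (right) in A/A at mid-tail, with 1 line per gene and HOXB13 in black. HOXB13 has no base value because it did not pass the filter there, and only JOSD2 and MMP7 change side, at the base.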

How the data were processed

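Whole-skin RNA selected on oligo(dT) beads was made into strand-keeping libraries, and the authors checked reads with FastQC 0.11.9, aligned them to the ARS-UI_Ramb_v3.0 sheep assembly and counted them per RefSeq gene by strand with featureCounts. The deposited values are raw read counts. For the tip the unit table says estimated count, because of how the columns are named, but the authors deposited whole read counts there too, and rounding changed none. 0 columns of sample values were left out.

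Libraries of a ram were summed. The methods text gives 1 A/A ram fewer for sequencing than the labels, and all 4 labelled A/A rams were used. Genes were filtered with filterByExpr, scaled by TMM and tested with edgeR 4.0.16 (quasi-likelihood, R 4.3.3), with Benjamini-Hochberg adjustment over all genes. DESeq2 1.42.0, limma-voom (limma 3.58.1), single libraries, other scalings and filters, and leaving out each ram were alternatives. Standard errors are the log2 fold change over the root of F. Code was tested on simulated data. Text genes are the 15 smallest p in each direction with a symbol and a mean of at least 1 CPM, the study's genes, the 4 smallest p of each described list, and genes past the study's thresholds in DESeq2. A pseudocount of 0.5 was added to CPM where stated. Chromosome positions and biotypes come from RefSeq, which matched 28742 of 31182 symbols. The comparison, lists and genes were chosen with earlier results of these data known. Some genes of the rule are not reported, and no sequence is shown.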

Additional observations from a re-analysis of the deposited data

Results flagged for a closer look

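Among the 4 A/A rams, 205 sets of values (text genes and list sums) were checked for a ram far from the others, by its gap to the nearest ram relative to the range of the 4, and 23 stood out, 20 of them through ram 7. Chance gives about 1 in 20, and the sets share genes and rams. Ram 7 was the highest A/A ram for CRACR2A (10.8 CPM), HOXD10 (3.97 CPM), CALCOCO2 (161 CPM), FGF10 (9.27 CPM), ACSM1 (326 CPM), ALOX15 (2.75 CPM), PLIN1 (89.9 CPM), CD3E (14.7 CPM), MS4A1 (3.05 CPM) and HIF3A (23.1 CPM). It was the lowest for ANKRD33B (20.3 CPM), HOXC13 (29.1 CPM), CYP2A6 (17.8 CPM), S100A3 (12.4 CPM) and KIF20A (10.4 CPM).

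In summed levels ram 7 was the lowest for the HOXC cluster (115 CPM) and the highest for the HOXD cluster (37.9 CPM), sebaceous gland markers (3153 CPM), T and NK cell markers (69.9 CPM) and interferon response genes (431 CPM). The other rams that stood out were ram 10, the lowest for HIVEP3 (15.1 CPM) and the highest for the hedgehog pathway (472 CPM), and ram 8, the highest for neutrophil and innate defence genes (288 CPM). The cause was not tested.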

How the results depend on the processing

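The count of genes with an adjusted p under 0.05 was 0 in edgeR under the scalings and filters tried, with any 1 ram left out (0 to 0), without the second library of ram 10, in limma-voom, with the first library of each ram, and on single libraries with or without a replicate block. It was 2 with all 21 ram sums in 1 fit, which had no term for the ram. It was 31 in DESeq2 and 12 with ram 7 and the second library of ram 9 left out. At the study's thresholds it was 11 in DESeq2 and 2 without those libraries. With the library number as a replicate block HOXB13 stood at 4.02 (adjusted p = 0.252) and without that block at 4.00 (adjusted p = 0.182). It passed only in DESeq2 (4.10), ranged from 3.31 to 4.49 with 1 ram left out, and has no value with the first libraries or the filter of 1 CPM in 3 ram sums, which it did not pass. The contrast with the base gave 2 genes with no filter and 0 to 2 with 1 ram left out.

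Signs turned as follows, and the cause was not tested. In limma-voom HOXD10 was at -0.246, HOXD4 at -0.325, ALOX15 at -0.0587 and CYP2A6 at -0.44. With first libraries PTGDS was at 0.0314, HOXA10 at 0.106 and HOXC11 at 0.149. Library totals put HOXA10 at 0.0426, leaving out the second library of ram 10 put it at 0.0276, and single libraries PTGDS at 0.0141. Without ram 7 and the second library of ram 9, HOXD10 was at -0.659, HOXD4 at -0.893, ADIPOQ at -0.0436, ALOX5AP at -0.0863, ALOX15 at -0.682, LEP at -0.398, PLIN1 at -0.0707 and HOXC11 at 0.0117. With 1 ram left out the lowest and highest values were -0.0855 and 0.479 for HOXB6, -0.0493 and 0.697 for HOXD9, -0.81 and 0.575 for HOXD10, -0.759 and 0.392 for HOXD4, -0.0916 and 2.06 for ACSM1, -0.0806 and 0.575 for PTGS1, -0.821 and 0.641 for ALOX15, -0.423 and 0.975 for LEP, -0.285 and 0.142 for PTGDS, -0.0197 and 1.54 for PLIN1, -0.202 and 0.133 for HOXA10, -0.529 and 0.223 for HOXA11, and -0.471 and 0.182 for HOXC11. With 4 against 3 rams, the wide spread within A/A limits what can be detected, and the D/D values of HOXB13 rest on 8 counts.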
